A study of Mus musculus with 18 samples.

Results

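The genes examined here encode the subunits of the receptors for glutamate, GABA and glycine, and were taken from the deposited table by gene symbol: Gria, Grik, Grin, Grid or Grm followed by a digit, Gabr followed by a subunit letter, Gabbr followed by a digit, and Glra or Glrb. The table held 38 of them among 12012 genes. They were 4 AMPA, 5 kainate, 6 NMDA and 1 delta-type glutamate receptor genes, 6 metabotropic glutamate receptor genes, 12 GABA-A, 2 GABA-B and 2 glycine receptor genes. Of the 52 subunit genes that carry these symbols in the mouse annotation, 14 had no row and were not analysed here, among them Grin3b, Grm6, Gabra6, Glra1 and Glra3.

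RNA came from primary hippocampal cultures of late mouse embryos, harvested after 2 or 3 days in vitro, as the study's sources give both. Cultures of wild type and Fibcd1 knockout mice (allele Fibcd1tm1Lex, C57BL/6J background) had been plated on coverslips coated with chondroitin sulphate proteoglycans (CSPGs), the matrix molecules whose sulphated sugar chains the FIBCD1 receptor is reported to bind. The 2 groups analysed were WT_CSPG and KO_CSPG, with 4 libraries each, replicates A to D. Both were grown on the coating, and uncoated cultures were not analysed here, so the values compare genotypes on CSPGs and say nothing of the response to the coating. The labels call the cells hippocampal neurons, and no sort is described. The replicates were described as biological. The p-values rest on the spread between these cultures, with each gene's variance drawn by limma toward that of genes of like level. In bulk RNA, fewer cells of a type and less RNA per cell cannot be told apart.

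Ionotropic receptors are channels built of several subunits around a pore. AMPA, kainate and NMDA receptors pass cations when glutamate binds, whereas GABA-A and glycine receptors pass chloride. Metabotropic glutamate and GABA-B receptors act through G proteins. In the hippocampus the subunit make-up shifts after birth: GluN2A joins GluN2B in NMDA receptors, embryonic glycine receptors contain alpha2, and the chloride exporter KCC2 (Slc12a5) gains on the importer NKCC1 (Slc12a2).

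Each library had between 10099564 and 11647202 reads over the genes of the table. A receptor gene was backed by 55 to 6509 reads in a library. Fibcd1, the targeted gene, had 54.3, 70.4, 60.1 and 182 normalised counts in the WT_CSPG replicates A to D and 0.970, 0.932, 7.16 and 4.74 in KO_CSPG, so the groups did not overlap (log2 fold change -4.48 ± 0.58, with its SE; adjusted p = 0.00599). The groups also differed in sex-linked genes. Xist, transcribed from the inactive X chromosome, ranged from 3912 to 5082 in WT_CSPG and from 6375 to 8324 in KO_CSPG, and the summed level of 4 Y-linked genes ranged from 1557 to 1935 in WT_CSPG and 878 to 1092 in KO_CSPG. Genotype accounted for 91.2% of the variance of the log2 of that sum, so sex and genotype cannot be told apart in these 8 libraries.

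No receptor subunit gene passed the threshold between KO_CSPG and WT_CSPG. With limma, 0 of 38 had an adjusted p under 0.05, against 346 of all 12012 genes (2.88%). The values leaned in one direction: 29 of the 38 genes had a positive log2 fold change and 9 a negative one, with a median of 0.09, whereas 50.1% of all genes were positive and their median was 0.00016. At an unadjusted p under 0.05, 13 of 38 genes (34.2%) were higher in KO_CSPG against 7.51% of all genes, and 2 (5.26%) were lower against 8.67%. The 4 values of each group did not overlap for 7 genes. Of these, 6 (15.8%) were higher in KO_CSPG against 4.05% of all genes, and 1 (2.63%) was lower against 5.17%. The 95% interval of 30 genes lay within 25% either way. That of the other 8 did not, among them Grin3a (-25.7% to 118%), Gabra3 (-27.1% to 58.9%), Grin2d (2.70% to 48.7%) and Grm2 (3.65% to 40.5%). Among the leading genes were Glrb, Glra2, Gria2, Gabrb1 and Gabrb2, each with an adjusted p under 0.1 and between 7.03% and 11.6% higher in KO_CSPG.

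**Figure D1:**
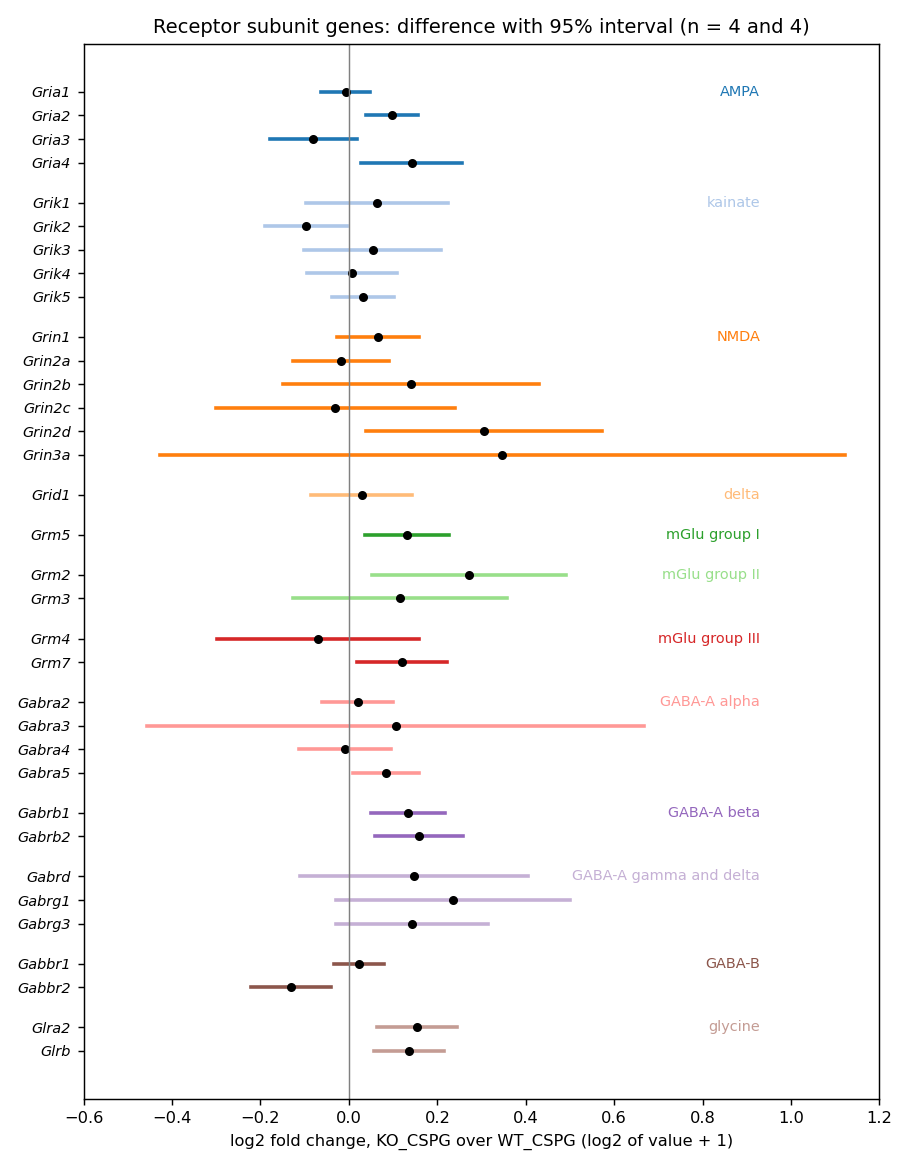
Log2 fold change of KO_CSPG over WT_CSPG (x axis, on log2 of the normalised count + 1) for 34 receptor subunit genes, grouped by family on the y axis, with points for the estimates and bars for 95% intervals from limma (4 libraries a group). Of the 34 points, 26 lie above 0; the intervals of Grin3a and Gabra3 are the widest.

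Several adjusted p-values lay near the threshold. Leaving out the WT_CSPG replicate D gave 6 called genes (Gabra3, Gabrb1, Glra2, Gria2, Gria4 and Grm5), and scaling by the upper quartile gave 6 (among them Gabrb1, Gabrb2, Glra2, Glrb and Gria2). Of all 12012 genes, 576 were called without that replicate and 360 with that scaling. Among all genes, upper-quartile scaling also moved the split of calls from 131 higher and 215 lower to 182 higher and 178 lower. With the summed Y-linked level as a covariate, 0 receptor genes were called, 22 had a positive log2 fold change and the median was 0.03. At an unadjusted p under 0.05, 0 were then higher and 2 lower. Of all 12012 genes, 825 (6.87%) were under that p in either direction and 2 were called with this covariate. Genotype accounted for 91.2% of the variance of this covariate, so the fit can hardly separate genotype from sex. Values of single genes with this covariate, given below, carry the same limit. Some reads cannot be placed with certainty, as part of the 50-base windows in a gene's transcripts also occur in another gene. Among the named genes the share was 11.6% for Grin2a, 8.53% for Grm2, 8.24% for Grin1 and 7.57% for Grin2d. It was 3.59% for Gabra5 and 2.65% for Glrb.

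The promoter bases of the 3 genes with the smallest p are shown to give the regulatory sequence from which the leading genes start. RefSeq sequences (GRCm38.p6) were at hand for 24 of the 38 genes. The 250 bases before the transcription start are printed 5′ to 3′ on the gene's strand, and capitals mark 3 short elements found on either strand. The first, spelled GGGCGG, is the GC box that the activator SP1 recognizes. The second is the TATA box, searched as TATAAA, where the general transcription machinery can assemble. The last, searched as AGCACCNNGGACAG with any base at N, is the core of RE1. RE1 is the element that the silencer REST binds in neuronal genes.
Glrb, chr3:80913661-80913910, minus strand: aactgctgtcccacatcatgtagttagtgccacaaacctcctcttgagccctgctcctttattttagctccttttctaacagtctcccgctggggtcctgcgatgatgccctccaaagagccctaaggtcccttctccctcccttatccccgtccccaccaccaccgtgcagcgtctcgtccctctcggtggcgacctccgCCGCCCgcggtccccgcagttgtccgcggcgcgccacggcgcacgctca
Glra2, chrX:165327394-165327643, minus strand: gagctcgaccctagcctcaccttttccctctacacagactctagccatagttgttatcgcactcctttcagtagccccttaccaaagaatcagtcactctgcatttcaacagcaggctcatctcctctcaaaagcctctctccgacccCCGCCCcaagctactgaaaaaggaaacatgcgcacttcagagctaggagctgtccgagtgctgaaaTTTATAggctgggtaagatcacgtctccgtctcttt
Gria2, chr3:80802836-80803085, minus strand: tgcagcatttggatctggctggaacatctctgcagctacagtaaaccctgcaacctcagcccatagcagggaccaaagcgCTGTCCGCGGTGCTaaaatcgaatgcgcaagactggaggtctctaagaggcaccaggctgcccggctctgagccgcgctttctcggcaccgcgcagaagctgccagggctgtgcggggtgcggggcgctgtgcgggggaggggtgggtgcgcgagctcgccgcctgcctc
The RE1 match of Gria2 starts 170 bases before the transcription start. That element was found in 0.0461% of 32536 promoters of the same length, and in 1 of the 24 receptor genes. A GC box was in 33.0% of all promoters and in 15 of the 24 genes, and a TATA box was in 12.3% and in 3. G and C made up a median of 62.6% of the bases for the receptor genes and 52.4% for all promoters. The part of this in the GC box counts was not tested. None of the printed bases lies in an annotated exon. A match describes the letters and not a site in use.

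AMPA receptors carry most fast excitation. Gria2 encodes GluA2, which makes the channel impermeable to calcium when its RNA is edited. It lies at chr3:80681450-80802835. Gria2 had 5649, 5517, 5456 and 5659 normalised counts in the WT_CSPG replicates A to D and 5876, 6055, 5751 and 6171 in KO_CSPG. Every KO_CSPG library was above every WT_CSPG library, with a mean 7.03% higher (95% interval 2.73% to 11.5%; log2 fold change 0.10 ± 0.03, adjusted p = 0.0645). Gria1, which encodes GluA1, had 5520.2, 5587, 5435 and 5596 in WT_CSPG and 5398, 5566, 5533 and 5534 in KO_CSPG. The groups overlapped, and the difference was -0.483% (-4.21% to 3.39%). Gria3 (GluA3), on the X chromosome, had 633, 613, 662 and 628 in WT_CSPG and 579.8, 628, 585 and 606 in KO_CSPG. It was the AMPA gene with the lowest fold change (-0.08 ± 0.05, adjusted p = 0.431), and 3 of its KO_CSPG values lay below all of the WT_CSPG values. Gria4 (GluA4), which is prominent in interneurons and early in development, had 602, 579, 530.5 and 653 in WT_CSPG and 624, 641, 674 and 666 in KO_CSPG. Its groups overlapped through the WT_CSPG replicate D, and its log2 fold change was 0.14 ± 0.06 (adjusted p = 0.180).

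Kainate receptors modulate release and excitability. Their 5 genes had log2 fold changes from -0.10 to 0.06, and 4 were positive. Grik2, which encodes GluK2, a subunit that forms channels by itself, was the lowest: it had 1233, 1205, 1269.5 and 1359 normalised counts in WT_CSPG and 1245, 1227, 1091 and 1175 in KO_CSPG (log2 fold change -0.10 ± 0.05, adjusted p = 0.283). The KO_CSPG replicates C and D lay below all of the WT_CSPG values and A and B within them. Grik5, which encodes the high-affinity subunit GluK5, ranged from 1856 to 2006 over the 8 libraries and differed by 2.22% (-2.56% to 7.24%). Grik4 (GluK4, also high-affinity) ranged from 659 to 769.8, Grik3 (GluK3) from 376 to 489 and Grik1 (GluK1) from 277 to 363, with adjusted p-values of 0.963, 0.798 and 0.764. Grid1, which encodes the delta-type subunit GluD1, a synaptic organizer, ranged from 422 to 491 (adjusted p = 0.861).

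NMDA receptors need GluN1, encoded by Grin1, in every channel. Grin1 had 1024, 967, 1008 and 1089 normalised counts in WT_CSPG and 1041, 1013, 1152 and 1073 in KO_CSPG, with overlap and a difference of 4.65% (-1.92% to 11.7%). An antisense gene, Grin1os, overlaps 13.5% of its exon bases, and the library kit marks no strand. Grin2b, which encodes GluN2B, the main GluN2 subunit before birth, had 2857, 3444, 2711 and 3037 in WT_CSPG and 3346, 3966, 2921 and 3078 in KO_CSPG. The replicate B value was the highest of its group in both genotypes, and the log2 fold change was 0.14 ± 0.12 (adjusted p = 0.654; -0.66 with the Y-linked covariate). Grin2a, which encodes the later GluN2A, had 615, 580.5, 578 and 551 in WT_CSPG and 547, 619, 551 and 581 in KO_CSPG. Those ranges overlapped almost entirely (-1.21%, -8.33% to 6.46%). The low genes Grin2c (GluN2C) and Grin2d (GluN2D) ranged from 57.2 to 72.7 and from 78.0 to 144. Grin2c had a log2 fold change of -0.03 ± 0.13 (adjusted p = 0.942). Grin2d had a log2 fold change of 0.31 ± 0.13 (adjusted p = 0.229), with overlapping groups, and an antisense gene covers 9.66% of its exon bases.

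For Grin3a and Gabra3, the KO_CSPG range lay inside a wider WT_CSPG range. Grin3a encodes GluN3A, a juvenile subunit that lowers calcium flow, and had 307, 438, 299.7 and 725 normalised counts in WT_CSPG and 548, 625, 408 and 549 in KO_CSPG. The WT_CSPG replicate D was the highest of all 8 libraries, and replicates A and C were the lowest (log2 fold change 0.35 ± 0.32, adjusted p = 0.682). Gabra3, the X-linked gene for the GABA-A alpha3 subunit, had 218, 210.1, 204 and 393 in WT_CSPG and 256, 263, 235 and 312 in KO_CSPG (log2 fold change 0.11 ± 0.23, adjusted p = 0.886). Against the mean of replicates A to C, the WT_CSPG replicate D was higher by 1.06 (log2) for Grin3a and by 0.90 for Gabra3. These ranked 10 and 17 among all 12012 genes, over which this ratio had an SD of 0.16. Without replicate D, Gabra3 had a log2 fold change of 0.33 and was called, and Grin3a had 0.62 and was not. For Grin3a it was 0.20 without the WT_CSPG replicate A, 0.19 without C, and -0.72 with the Y-linked covariate. In the same library Fibcd1 was at 182 against 54.3 to 70.4 in replicates A to C. Ttr, a gene of the choroid plexus (the epithelium that makes cerebrospinal fluid), was at 331, 953, 11.6 and 3529 in the WT_CSPG replicates A to D and 243, 115, 5.11 and 21.8 in KO_CSPG. Ttr was the only 1 of 7 choroid plexus markers with a row in the table, and its part in these values was not tested.

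**Figure D2:**
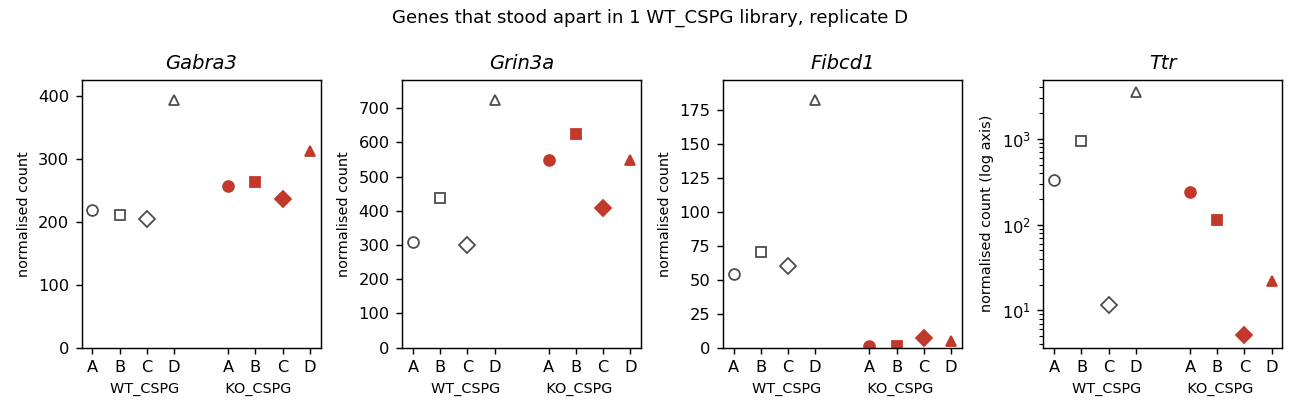
Normalised counts (y axis, logarithmic for Ttr) of Gabra3, Grin3a, Fibcd1 and Ttr in the replicates A to D of WT_CSPG (open) and KO_CSPG (filled). Each point is 1 library; the WT_CSPG replicate D is the highest point for all 4 genes, at 393, 725, 182 and 3529.

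Metabotropic glutamate receptors were represented by 6 of 8 genes, of which 4 had a positive log2 fold change. Grm5, which encodes mGluR5, the group I receptor that couples to calcium release in pyramidal neurons and astrocytes, had 2663, 2871, 2716 and 3011 normalised counts in WT_CSPG and 2957, 3350.2, 2913 and 3112 in KO_CSPG. Its groups overlapped through the WT_CSPG replicate D (log2 fold change 0.13 ± 0.05, adjusted p = 0.141; -0.22 with the Y-linked covariate). The group II autoreceptor genes Grm2 (mGluR2) and Grm3 (mGluR3) were low, at 103 to 156 and 84.6 to 123. Grm2 had a log2 fold change of 0.27 ± 0.11 (adjusted p = 0.185), with an antisense gene over 9.60% of its exon bases, and Grm3 one of 0.12 ± 0.12 (adjusted p = 0.701). Of the group III genes, Grm7 (mGluR7, a presynaptic receptor) ranged from 581 to 615 in WT_CSPG and from 607 to 695 in KO_CSPG, and its adjusted p was 0.212. Grm4 (mGluR4) ranged from 91.1 to 126 over the 8 libraries (adjusted p = 0.827).

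GABA-A receptors usually combine 2 alpha, 2 beta and 1 gamma or delta subunit. Of their 12 genes, 11 had a positive log2 fold change (median 0.13) and 5 had an unadjusted p under 0.05, all higher in KO_CSPG. Of all genes, 50.1% had a positive value and 7.51% were higher at that p. Gabrb1, for beta1, had 1329, 1439, 1319 and 1425 normalised counts in WT_CSPG and 1470.0, 1619, 1480.3 and 1482 in KO_CSPG. Gabrb2, for beta2, had 612, 591, 592 and 587 in WT_CSPG and 653, 717, 636 and 657 in KO_CSPG. In both the KO_CSPG libraries lay above the WT_CSPG libraries, by 9.76% (3.56% to 16.3%) and 11.6% (4.21% to 19.6%). Their adjusted p-values were 0.0762 and 0.0769. Gabrb1 changed sign, from 0.13 to -0.20 (log2 fold change), once the Y-linked covariate was in the fit. That fit can hardly separate genotype from sex, so the change of sign was not interpreted.

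The alpha subunits set where the receptor sits and how it responds to GABA. Gabra5, for the extrasynaptic alpha5 subunit typical of the hippocampus, had 1695, 1724, 1635 and 1584 normalised counts in WT_CSPG and 1829, 1729, 1765 and 1715 in KO_CSPG (log2 fold change 0.08 ± 0.04, adjusted p = 0.236). The lowest KO_CSPG value lay below the highest WT_CSPG value by a small margin. Gabra2, for alpha2, which is found at the axon initial segment, had 1706, 1523, 1521 and 1658 in WT_CSPG and 1617, 1584, 1642 and 1645 in KO_CSPG and did not separate (1.38%, -4.16% to 7.23%). Gabra4, for alpha4, had 730.4, 658, 795 and 736 in WT_CSPG and 743, 719, 722 and 714 in KO_CSPG, and the log2 fold change was -0.0081 ± 0.05 (adjusted p = 0.959). The low genes Gabrd, Gabrg1 and Gabrg3 (delta, gamma1 and gamma3) ranged from 69.3 to 104, from 68.9 to 108 and from 154 to 190.2, and had log2 fold changes of 0.15, 0.24 and 0.14 with adjusted p-values of 0.622, 0.380 and 0.420.

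Many GABA-A genes sit in clusters. On chromosome 5 (70751047 to 72149037, mm10), Gabrg1, Gabra2, Gabra4 and Gabrb1 had log2 fold changes of 0.24, 0.02, -0.0081 and 0.13 with overlapping 95% intervals. Gabra4 and Gabrb1 are read in opposite directions and their exons overlap by 46 bases. On chromosome 3, Gria2 and Glrb are read in the same direction, 40763 bases apart, and had log2 fold changes of 0.10 and 0.14.

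GABA-B receptors are dimers of GABBR1, which binds GABA, and GABBR2, which couples to the G protein. Gabbr2 was the gene of the 38 with the lowest fold change: it had 2466, 2609.9, 2511 and 2432 normalised counts in WT_CSPG and 2322, 2373, 2049 and 2420.3 in KO_CSPG. Every KO_CSPG value lay below every WT_CSPG value, with a mean difference of -8.68% (-14.2% to -2.75%; log2 fold change -0.13 ± 0.04, adjusted p = 0.118). The KO_CSPG replicate C was the lowest. Its partner Gabbr1 had 5990.4, 5796, 5783 and 6057 in WT_CSPG and 5848, 6053, 6108 and 5981 in KO_CSPG, with overlap (1.55%, -2.39% to 5.64%).

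Glycine receptors of embryonic neurons contain the alpha2 subunit (Glra2, X-linked), and the beta subunit (Glrb) binds the scaffold gephyrin. Both were among the leading genes. Glrb, at chr3:80843599-80913660, had 967, 919, 949 and 956 normalised counts in WT_CSPG and 1036, 1055, 1033 and 1045 in KO_CSPG. The groups were apart, with a mean difference of 9.92% (4.04% to 16.1%; log2 fold change 0.14 ± 0.04, adjusted p = 0.0524). Glra2, at chrX:165129017-165327393, had 1376, 1209.6, 1377 and 1368 in WT_CSPG and 1482, 1549, 1503 and 1395 in KO_CSPG (log2 fold change 0.15 ± 0.04, adjusted p = 0.0549). The WT_CSPG replicate B was well below the other 3 and the KO_CSPG replicate D was the lowest of its group, still above all of WT_CSPG. Over 16 alternative analyses, among them the Y-linked covariate, the adjusted p-values ranged from 0.0315 to 0.845 for Glrb and from 0.0319 to 0.818 for Glra2. With 1 library left out in turn they ranged from 0.0540 to 0.140 for Glrb and from 0.0337 to 0.192 for Glra2. The part of the sex difference in the X-linked genes was not tested, because the covariate fit can hardly separate sex from genotype.

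**Figure D3:**
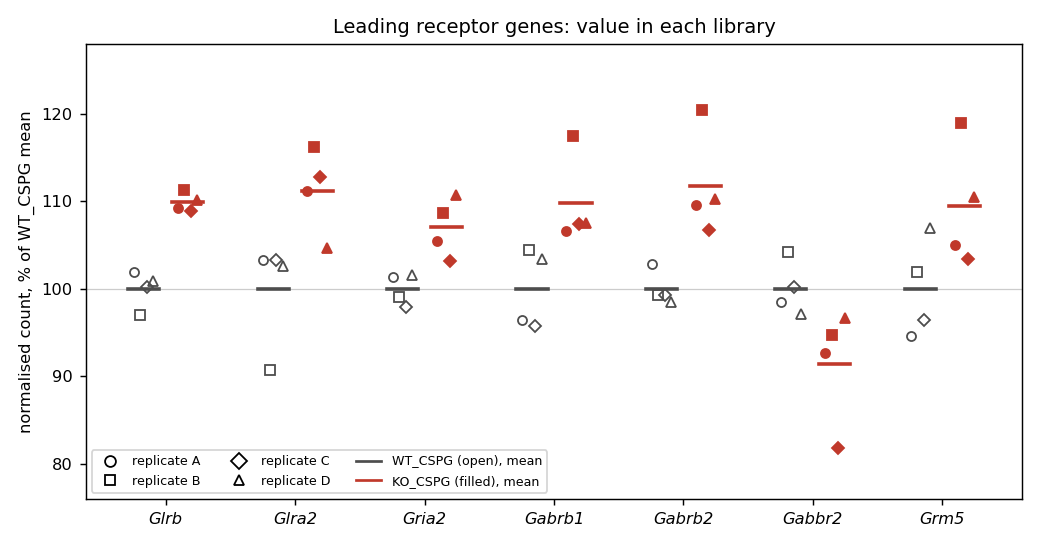
Normalised counts of 7 leading receptor genes, as percent of the WT_CSPG mean (y axis, starting at 76), in each WT_CSPG (open) and KO_CSPG (filled) library; lines are group means and symbol shapes give the replicate. The groups do not overlap for the first 6 genes, of which Gabbr2 is the only 1 lower in KO_CSPG; Grm5 overlaps.

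Per kilobase of exon, the receptor genes spanned from 11.1 (Gabrg1) to 914 (Gria1) normalised counts, as means over the 8 libraries. After Gria1 (916 ± 12.3 per kilobase in WT_CSPG, SD, n = 4) came, among others, Gabbr1 (761 ± 17.8), Gabra5 (558 ± 21.1) and Glra2 (423 ± 26.1). Gria2 (358 ± 6.42), Grik5 (366 ± 8.34) and Gabbr2 (375 ± 11.6) had like levels, as did Glrb (204 ± 4.34) and Gabra2 (209.7 ± 12.4). Gria1 thus had the highest level of the AMPA genes, Gabra5 of the alpha genes and Grm5 of the metabotropic genes. These levels depend on the length used. The exons of Gria2 sum to 15548 bases over all of its isoforms, against 6043 for Gria1, and without division by length Gria1 was at 5534 ± 74.4 and Gria2 at 5570.1 ± 99.8 counts in WT_CSPG.

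**Figure D4:**
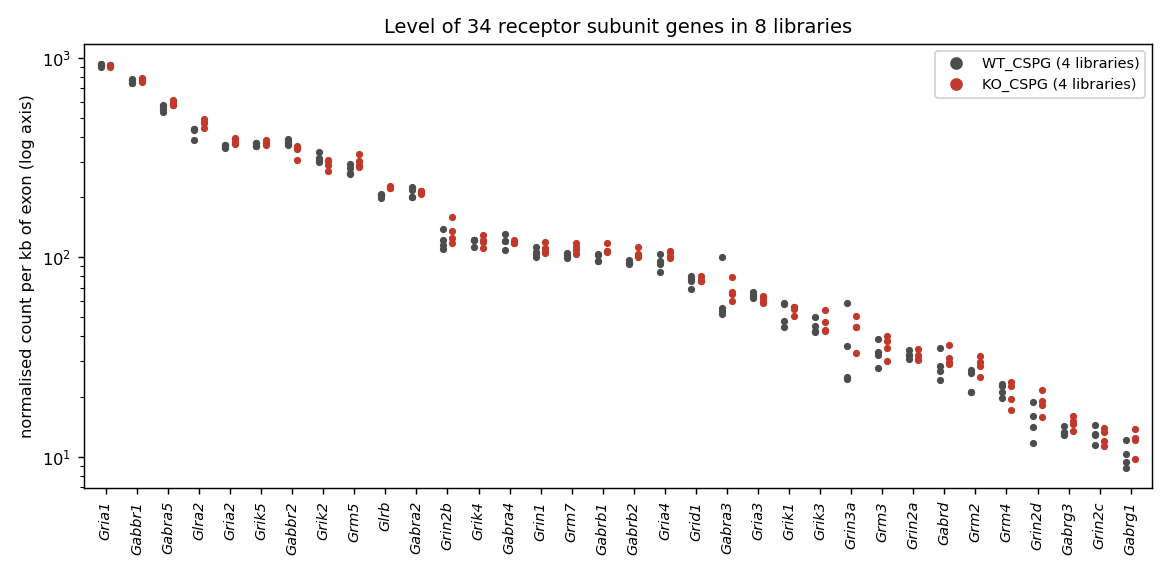
Normalised counts per kilobase of exon (y axis, logarithmic) of 34 receptor subunit genes, ordered by their mean, in the 4 WT_CSPG and 4 KO_CSPG libraries; each point is 1 library. Levels run from 914 for Gria1 to 11.1 for Gabrg1, and within a gene the highest library is a median of 1.24 times the lowest, and 2.42 times for Grin3a, 1.93 for Gabra3 and 1.85 for Grin2d, the widest 3 of the 34.

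In every library Grin2b exceeded Grin2a in counts per kilobase. The ratios of subunits are described without a test. The Grin2b to Grin2a ratio was 3.35, 4.28, 3.39 and 3.98 in the WT_CSPG replicates A to D and 4.42, 4.62, 3.83 and 3.82 in KO_CSPG, with overlap. Grin2b made up 66.6% ± 3.09 (SD, n = 4) of the 4 GluN2 genes in WT_CSPG and 67.7% ± 2.98 in KO_CSPG. For glycine receptors, Glra2 had a high level while Glra1, the alpha subunit of mature receptors, had no row, so their ratio could not be formed.

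The Gria2 share of the AMPA genes was 25.3, 24.8, 25.0 and 25.0% in WT_CSPG and 26.4, 26.4, 25.5 and 26.8% in KO_CSPG. The groups did not overlap, with means of 25.0 ± 0.222% and 26.3 ± 0.569% (SD, n = 4). The Gria1 share was 64.0% ± 0.462 and 62.5% ± 0.484 and the Gria3 share 4.49% ± 0.208 and 4.17% ± 0.104, also without overlap. The Gria4 share overlapped. As parts of the same total, these shares are not independent. Slc12a2 per kilobase stood to Slc12a5 as 1.60, 1.54, 1.50 and 1.38 in WT_CSPG and 1.18, 1.36, 1.30 and 1.28 in KO_CSPG. These groups were apart by a small margin, 1.38 against 1.36. Neither transporter gene was called: Slc12a5 had 521, 572, 524 and 646 normalised counts in WT_CSPG and 659, 630.3, 615 and 647 in KO_CSPG (adjusted p = 0.107), and Slc12a2 had an adjusted p of 0.649. With GENCODE exon lengths the mean Slc12a2 to Slc12a5 ratio over the 8 libraries was 0.832 instead of 1.39, so which of the 2 is higher depends on the length. The Grik2 to Grik1 ratio was 6.04 ± 0.671 in WT_CSPG and 5.39 ± 0.403 in KO_CSPG, and it fell to a mean of 1.90 over the 8 libraries with GENCODE lengths, because the table gives Grik2 a length of 4040 bases and GENCODE 13246.

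**Figure D5:**
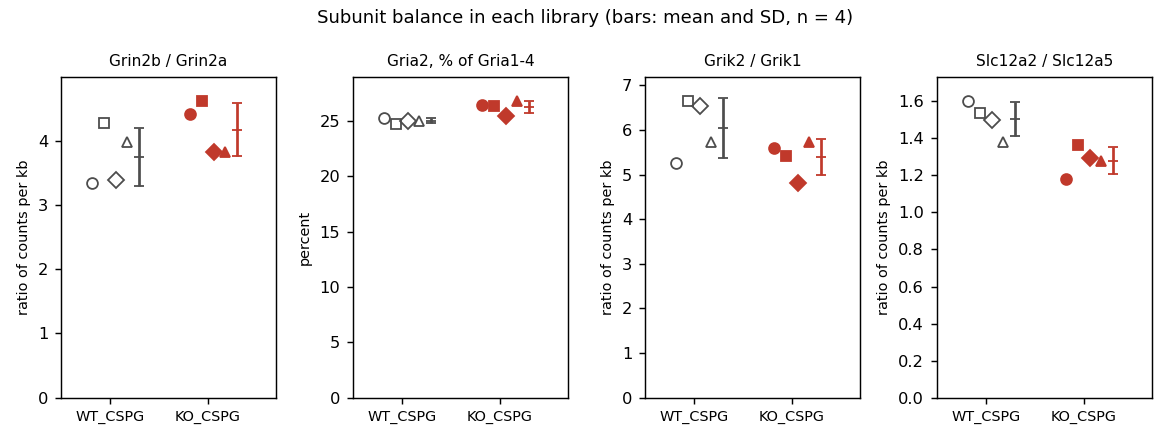
Subunit balance in each library of WT_CSPG (open) and KO_CSPG (filled): 3 ratios of normalised counts per kilobase and the Gria2 share of Gria1 to Gria4 in percent (y axes from 0), with mean and SD bars (n = 4) and symbol shapes for the replicates A to D. The Gria2 share and the Slc12a2 to Slc12a5 ratio do not overlap between groups; the other 2 ratios do.

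The partner genes of these receptors did hold called genes. Of 81 listed auxiliary subunits, scaffolds, transporters and transmitter enzymes, 78 had a row, and 4 rose and 4 fell in KO_CSPG (10.3%, against 2.88% of all genes; median log2 fold change 0.0090). The list was chosen with earlier results of these data known and the count was added after seeing them. The share is therefore a description, and an excess over all genes was not tested. Among the AMPA receptor auxiliary genes, 1 of 18 rose and 3 fell. Nptx1 and Nptx2, which encode the neuronal pentraxins that cluster AMPA receptors from outside the cell, fell most. Nptx1 had 1083, 966, 1071 and 884 normalised counts in WT_CSPG and 666, 679, 652 and 740.4 in KO_CSPG (log2 fold change -0.54 ± 0.06, adjusted p = 1.59e-05). Nptx2 had 185, 162, 178 and 178 in WT_CSPG and 99.9, 134, 129.8 and 118 in KO_CSPG (-0.55 ± 0.10, adjusted p = 0.00138). Neither gene overlapped between groups, and both were called in every alternative analysis but the one with the Y-linked covariate. Their receptor Nptxr had 2642, 2659.7, 2713 and 2919 in WT_CSPG and 2874, 2807, 2738 and 2967 in KO_CSPG and was not called (adjusted p = 0.434).

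Cnih3, a cornichon that slows AMPA receptor gating, fell from 1169.6 ± 45.4 (SD, n = 4) to 1041 ± 39.2 (log2 fold change -0.17 ± 0.04, adjusted p = 0.0236). Shisa9, another AMPA receptor modulator, rose from 509 ± 24.9 to 585 ± 13.4 (0.20 ± 0.05, adjusted p = 0.0259). Neto1, an auxiliary subunit of kainate receptors, rose from 152 ± 19.3 to 194 ± 10.9 (0.36 ± 0.09, adjusted p = 0.0302), whereas Neto2, the other of the 2 kainate auxiliary genes, had an adjusted p of 0.391. Of 21 scaffold and trafficking genes, 2 were called. Dlg3, the X-linked gene for SAP102, which holds NMDA receptors at young synapses, rose from 1101 ± 42.7 to 1234 ± 59.4 (adjusted p = 0.0299). Homer1, which ties group I metabotropic receptors to the scaffold, fell from 1348 ± 43.9 to 1205 ± 32.4 (adjusted p = 0.0182). None of the 18 GABA and glycine receptor anchoring genes and none of the 5 chloride cotransporters passed limma's test, and 2 and 1 of them had an unadjusted p under 0.05. With 1 of the 8 libraries left out in turn, Nptx1 and Nptx2 kept their calls each time, while the calls of Cnih3 and Homer1 were lost in 4 of the fits, those of Shisa9 and Dlg3 in 5 and that of Neto1 in 6. All 5 were lost without the WT_CSPG replicate A. Shisa9, Neto1, Dlg3 and Homer1 were lost without the KO_CSPG replicate A, and Cnih3, Shisa9, Dlg3 and Homer1 without the KO_CSPG replicate C. Cnih3, Shisa9 and Neto1 were lost without the WT_CSPG replicate B, Neto1, Dlg3 and Homer1 without the WT_CSPG replicate C, Cnih3, Neto1 and Dlg3 without the KO_CSPG replicate B, and Shisa9 and Neto1 without the KO_CSPG replicate D. The number of called partner genes was 0 with the Y-linked covariate, 2 without the variance trend, and between 3 (without the WT_CSPG replicate A) and 13 (without the WT_CSPG replicate D) when 1 library was left out.

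Markers of neurons and of other cell types were examined beside the receptor genes. Of the pan-neuronal markers 0 of 8 were called by limma (1 at an unadjusted p under 0.05), and their summed normalised counts ranged from 74789 to 79648 in WT_CSPG and 74707 to 76857 in KO_CSPG. The 11 GABAergic interneuron markers held 0 called genes (2 at an unadjusted p under 0.05) and summed to 6549 to 7893 in WT_CSPG and 7252 to 8347 in KO_CSPG. Among 8 excitatory neuron markers 1 rose and 2 fell (Neurod2 and Neurod6; 4 at an unadjusted p under 0.05), with sums from 13691 to 14949 in WT_CSPG and 13128 to 13802 in KO_CSPG. Of 8 oligodendrocyte lineage markers 2 rose, Olig1 (log2 fold change 0.59 ± 0.06) and Olig2 (0.79 ± 0.08), 4 had an unadjusted p under 0.05, and the sums did not overlap, from 1087 to 1403 in WT_CSPG and 1712 to 1871 in KO_CSPG. Of 13 astrocyte and radial glia markers 1 fell, Nes (log2 fold change -0.22 ± 0.04), and 4 had an unadjusted p under 0.05. The others of these were higher in KO_CSPG and not called: Aqp4 (0.32 ± 0.11), Gja1 (0.27 ± 0.08) and Hes5 (0.34 ± 0.12), with adjusted p-values of 0.216, 0.112 and 0.129. The list had sums from 52678 to 61141 in WT_CSPG and 58011 to 62961 in KO_CSPG. No call was made among 3 Cajal-Retzius, 6 microglia, 6 fibroblast and mural and 8 proliferation markers with a row, of which 1, 3, 1 and 0 had an unadjusted p under 0.05. The part of these cell types in the values of the receptor and partner genes was not tested.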

How the data were processed

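Poly-A RNA was sequenced by the authors on an Illumina instrument as 50-base single reads from NEBNext Ultra libraries, a kit that does not mark strand. Of 18 libraries labelled in the series, the deposited table has columns for 8 (WT_CSPG and KO_CSPG, replicates A to D), matched by name; the others were not analysed here. The authors deposited a normalised signal, read counts divided by a size factor per library, together with their DESeq2 comparison columns (fold change, standard error, test score and p-values), which were not used. The submitters' processing notes name mm10 and DESeq2; the aligner and counter are not given in the sources used here. Every value was a whole multiple of 1 step per library, from which the reads over the table were computed; the lowest mean of any gene was 40.7, so low genes are missing.

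The log2 of each value + 1 was fitted over all 12012 genes with limma 3.58.1 in R 4.3.3 (trend and robust prior variance), with Benjamini-Hochberg adjustment and a threshold of 0.05. Fold changes are on that scale. The fit was tested on simulated data. Planned fits with count models (edgeR, DESeq2) and TMM scaling were not run, because the table lacks low genes. Whole reads for such fits could have been computed from the normalised values. Levels per kilobase use the exon length in the table. It equalled the GENCODE M21 exon length for 34 of the 38 members. Table starts, which count from 0, are given from 1. Summaries and figures used Python 3.11.15, pandas 2.3.3, numpy 2.4.6 and matplotlib 3.10.9.

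A few members, list genes and values that need them are not reported here. The named genes were the other members, with per-library values for main subunits, called list genes, Fibcd1 and sex genes; Ttr and Nptxr were added with their values known. The members and lists were chosen with earlier results of these data known. Whether replicate letters pair the libraries was not settled. Deviations of same-lettered libraries correlated at -0.07, 0.10, 0.27 and -0.01, and replicates B and C correlated best with their own letter. The main fit treated the libraries as unpaired. Alternatives were other pseudocounts (0.1 and 10), a minimum mean of 100, upper-quartile scaling, other prior variances, a replicate block, a Y-linked covariate, leaving out each library, and other gene lengths.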

Additional observations from a re-analysis of the deposited data

Results flagged for a closer look

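In 76 groups of 4 libraries (38 genes, 2 genotypes), 4 held 1 library whose gap to the nearest other exceeded the share of the range that is Dixon's 95% critical value for 4 values. Chance flags about 1 in 20 groups, which is 3.8 of 76. Gabra3 was at 393 normalised counts in the WT_CSPG replicate D against 204 to 218 in the other 3. Glra2 was at 1209.6 in the WT_CSPG replicate B against 1368 to 1377. Gabrb1 was at 1619 in the KO_CSPG replicate B against 1470.0 to 1482. Grik4 was at 672 in the WT_CSPG replicate C against 722 to 727.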

How the results depend on the processing

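The count of 0 receptor genes called was 1 with a mean of at least 100, 1 without the robust prior variance and 6 with upper-quartile scaling. It ranged from 0 to 6 with single libraries left out, with 1 without the KO_CSPG replicate D and 6 without the WT_CSPG replicate D. Of the 10312 genes with a mean of at least 100, 342 were called. Of all 12012 genes, 349 were called without the robust prior variance, 360 with upper-quartile scaling and 262 without the KO_CSPG replicate D. The 346 calls among all genes were 80 without the variance trend and 2 with the Y-linked covariate, and ranged from 186 to 576 with 1 library left out: 226 and 202 without the WT_CSPG replicates A and C, 186 and 204 without the KO_CSPG replicates A and C, and 576 without the WT_CSPG replicate D. The partner genes called, 8 in the main analysis, were 2 without the trend and 0 with the covariate, and ranged from 3 to 13 with 1 library left out (3 without WT_CSPG A, 5 without WT_CSPG C, 4 without KO_CSPG A, 5 without KO_CSPG C, 13 without WT_CSPG D); this count was added after seeing the data. With the replicate block, 4 receptor genes (Gabrb1, Gria2, Grin2b and Grm5), 10 partner genes and 429 genes in all were called. Libraries of 2 of the 4 letters correlated best with their own letter, which does not settle whether a block is called for. The Fibcd1 log2 fold change was -5.01 and -2.79 with pseudocounts of 0.1 and 10. It was -3.68 with the covariate and lost its call (adjusted p = 0.810; 3.39e-07 to 0.810 over the alternatives), and Fibcd1 was absent at a mean of at least 100.

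Log2 fold changes changed sign with upper-quartile scaling for Gabra4 (0.0042) and Gria1 (0.0053), and with the Y-linked covariate for Gabra4 (0.22), Gabrb1 (-0.20), Gabrg3 (-0.17), Grid1 (-0.19), Grik3 (-0.54), Grin2b (-0.66), Grin3a (-0.72), Grm2 (-0.35), Grm3 (-0.22) and Grm5 (-0.22). With 1 library left out they ranged across 0 for Gabra2 (-0.0047 to 0.051), Gabra4 (-0.057 to 0.034), Gria1 (-0.016 to 0.0027), Grid1 (-0.014 to 0.058), Grik1 (-0.0080 to 0.12), Grik3 (-0.022 to 0.11), Grik4 (-0.028 to 0.046), Grin2a (-0.054 to 0.010), Grin2c (-0.088 to 0.024) and Grm4 (-0.14 to 0.017). The other 17 of 34 genes kept their direction in all alternatives. Genotype accounted for 91.2% of the variance of the Y-linked covariate, so that fit can hardly separate genotype from sex. The cause of these changes was not tested.

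Without division by length, mean ratios over the 8 libraries were 5.49 (Grin2b to Grin2a; 3.96 in the main analysis), 3.74 (Grik2 to Grik1; 5.72) and 1.22 (Slc12a2 to Slc12a5; 1.39), and the Gria2 share was 46.0% (25.6%). With the longest principal transcript, a length added after seeing the data, they were 3.34, 1.45, 1.13 and 30.7%. GENCODE exon lengths moved the Grik2 to Grik1 ratio to 1.90 and the Slc12a2 to Slc12a5 ratio to 0.832. Fits with edgeR and DESeq2 and TMM scaling had been intended and were not run. No gene with a mean under 40.7 has a row, so subunits below that level could not be examined, and the part of depth in this was not tested.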
